A study of Mus musculus with 205 samples.

Results

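The lead MitoKO pairs were delivered as 2 separate plasmids without a ribozyme, 1 pair for each of the 13 protein-coding genes of mouse mtDNA, and their editing was set against the matching empty vector. These samples were taken by their labels: 3 for each of the 13 constructs (39 edited samples) and 3 with the empty vector, 42 of the 205 samples of the series. All were NIH/3T3 cells, an established line of mouse embryonic fibroblasts, collected 14 d after transfection, and the mtDNA of all 42 was sequenced in 1 NovaSeq run, here called NS1. The edited cells received both monomers of a pair and the control cells received vectors without an editor. Transfected cells were sorted for both fluorescent markers, so the values describe cells that had taken up both plasmids. One figure legend of the study names the samples of a construct technical replicates, whereas another names those of Nd3, Cytb, CoII and Atp6 biological. The spread between the samples of a construct may thus be technical, and the p-values below take each sample as a unit.

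A DdCBE is a cytosine base editor for mitochondria: TALE arrays bind the mtDNA on both sides of a target, the parts of a split bacterial deaminase meet between them, and a cytosine, by preference one that follows a thymine, is turned into a thymine. The genes that were targeted encode membrane subunits of the respiratory chain, namely the Nd subunits of complex I (NADH dehydrogenase), Cytb of complex III (the cytochrome bc1 complex), the Co subunits of complex IV (cytochrome c oxidase) and the Atp subunits of complex V (ATP synthase). In all of them the edit was designed to make a premature TAA stop codon. The values were, for each sample, the percentage of edited reads at the target (on-target editing), the mtDNA-wide average of C:G-to-T:A percentages (average off-target editing) and the mean depth (coverage). The excess is the average off-target editing of a sample minus the mean of the 3 empty vectors, in percentage points, and the excess per percent is that excess divided by the on-target percentage of the same sample. The excess per percent is printed in units of 0.001 percentage points.

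Target sites of 7 constructs are shown because the results turn on them. They are those with the highest (CoIII, Atp6) and the lowest excess per percent (Nd2, Nd4l) and the least edited one (Nd6). CoII and Cytb are also shown. Of the pairs within 2 percentage points on target, they had the largest ratio of excess per percent with all samples. Each site was read from the reference mtDNA (GRCm38, chromosome M) on the strand that carries the edited cytosine, 5′ to 3′, with the designed target base or bases in capitals in the middle of the window.
CoIII, G9043A, chrM:9033-9053, minus strand: atgatgagctCatgtaattga
Atp6, G8069A, chrM:8059-8079, minus strand: tttaactagtCagtgttggaa
Nd2, G4002A, chrM:3992-4012, minus strand: caggcctactCatattagtat
Nd4l, C10147T with C10146T, chrM:10137-10157, plus strand: agattacgtCCaaaatctcaa
CoII, G7323A, chrM:7313-7333, minus strand: gcttcagtatCattggtgccc
Cytb, G14374A, chrM:14364-14384, minus strand: tcggattagtCacccgtaatt
Nd6, C13814T, chrM:13804-13824, plus strand: caaaattaatCagttagatcc
Substitutions name the reference base, its position from the first base of the mtDNA and the edited base. Each of the 13 targets lies in the coding sequence of 1 gene only. Other cytosines after a thymine (TC, on either strand and without the target bases) were counted in the same 21-base window. The Nd2 window holds 0 of them, those of CoIII, CoI and Nd4l hold 3 each, and the others hold 1 or 2. Of the 1747 windows of this length centred on a TC cytosine in the mtDNA, 90.7% hold another TC and 29.3% hold 3 or more others. This is a description of the letters, and it says nothing of which bases were edited.

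At the target, the 3 samples of a construct lay close together and the constructs lay apart. Between-construct differences made up 99.8% of the variance of on-target editing over the 39 samples (permutation test of labels over constructs, one-sided for a larger share, p = 1e-05, the smallest that 100000 permutations can give). Only 1 of the 12 pairs of neighbours in the order of the means, Nd5 and Nd4, had overlapping samples. All 21 samples of the 7 complex I constructs, from 38.1% to 63.5%, were below all 18 samples of the other 6, from 64.2% to 74.1%. The mean of the construct means was 52.4% for complex I (52.5% without Nd4 replicate 3, a library described below), 70.7% for the 3 constructs of complex IV and 67.5% for the 2 of complex V, and the single complex III construct had 64.5%. A complex is represented here by its genes, each with 1 construct, so these means carry no test between complexes.

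**Figure D1:**
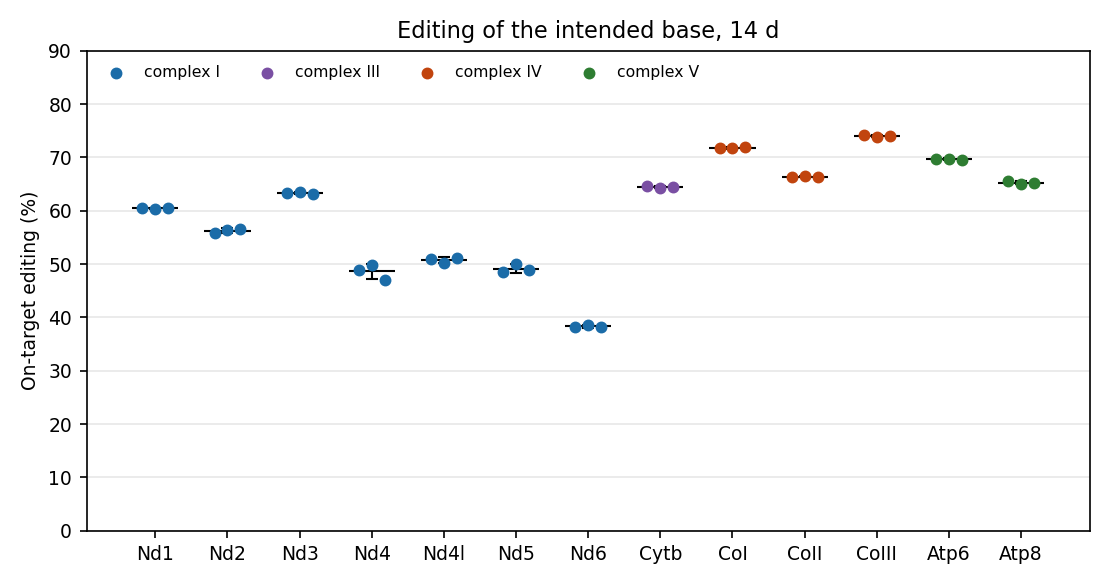
On-target editing (%, vertical axis) of each of the 3 samples of the 13 constructs at 14 d, coloured by respiratory complex, with the mean (line) and SD (bar). The complex I samples end at 63.5% and the samples of the other complexes begin at 64.2%.

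Complex and library index went together. The index that the labels call i5 was i502 for the empty vector, Nd1, Nd2 and Nd3, i503 for Nd4, Nd4l, Nd5 and Nd6, i504 for Cytb and the 3 Co constructs, and i505 for both Atp constructs. Median coverage of the edited samples was 57049 under i502, 65877 under i503, 81511 under i504 and 79120 under i505. Complexes III, IV and V thus share no i5 index with complex I or with the empty vector, and complex and index cannot be told apart in a comparison of complexes. One library stood apart in depth. Nd4 replicate 3 had a coverage of 2561, whereas the next lowest of the 42 samples had 31439 and the highest 96891. The Nd4 values, the complex I means, the pairs of constructs and the relation of on-target editing to the excess per percent are therefore also given without this sample. The other relations across constructs are given with all samples only.

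In the empty vectors, average off-target editing was 0.0240%, 0.0240% and 0.0235%, with a mean of 0.0238% ± 0.00028 (SD, n = 3). The 39 edited samples ranged from 0.0698% to 0.294%, and the lowest of them was 2.91 times the highest empty vector. Their mean was higher by 0.114 percentage points (exact permutation test over 11480 splits, two-sided, p = 0.0044). That test takes the 39 samples as exchangeable although they come in sets of 3. Within index i502, which the empty vector shares with Nd1, Nd2 and Nd3, the difference was 0.0882 percentage points (9 against 3 samples, exact permutation test over 220 splits, two-sided, p = 0.0091). Here too, the 9 edited samples are taken as exchangeable although they come in sets of 3. In each of the 13 constructs all 3 samples exceeded all 3 empty vectors (p = 0.10 in every one by a two-sided exact permutation test, and 0.10 after Benjamini-Hochberg adjustment over the 13, the smallest that 3 against 3 allow).

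**Figure D2:**
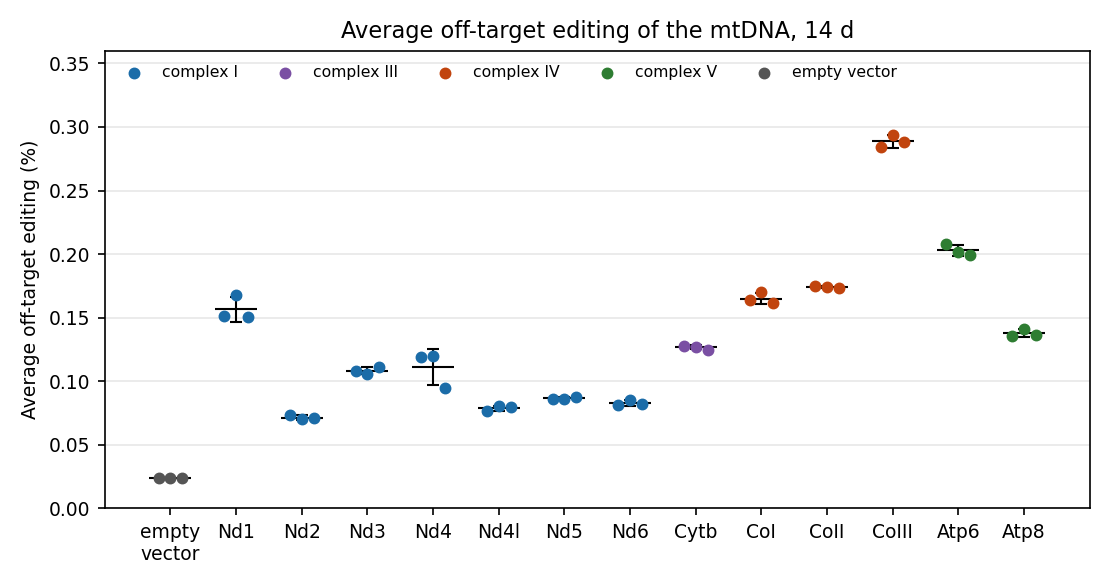
Average off-target editing (%, vertical axis) of the 3 samples of the empty vector and of each construct at 14 d, coloured by respiratory complex, with the mean (line) and SD (bar). The empty vectors lie at 0.0235% to 0.0240%, and the edited samples reach from 0.0698% in Nd2 to 0.294% in CoIII.

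The excess over the empty vector ranged from 0.0475 percentage points in Nd2 to 0.265 in CoIII, a ratio of 5.58, while on-target editing spanned a ratio of 1.93. Constructs accounted for 99.4% of the variance of the excess and for 98.8% of that of the excess per percent (permutation tests as above, p = 1e-05 for each). Per percent of on-target editing the constructs still differed 4.24-fold, from 0.845 ± 0.037 in Nd2 to 3.58 ± 0.074 in CoIII (units of 0.001 percentage points per percent, SD, n = 3 each), with a median of 1.74 over the 13 constructs. Of the 78 possible pairs of constructs, 71 had excess per percent values that did not overlap between their samples, and 74 without Nd4 replicate 3. In the order of the means, the neighbours CoII and Nd1, CoI and Nd4, Nd4 and Atp8, Cytb and Nd6, and Nd3 and Nd5 overlapped and cannot be ranked by these samples.

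**Figure D3:**
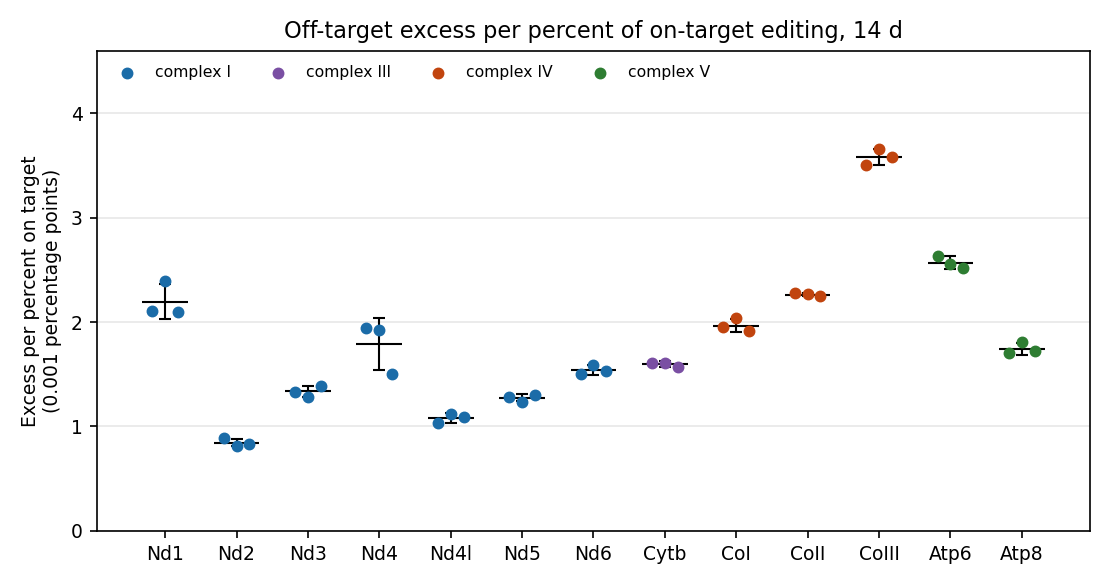
Off-target excess over the empty vector per percent of on-target editing (units of 0.001 percentage points, vertical axis) for the 3 samples of each construct, coloured by complex, with the mean (line) and SD (bar). CoIII stands at 3.58 and Nd2 at 0.845, and Nd1 is the highest of complex I at 2.20.

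Complex IV had the construct with the largest excess. CoIII, a core subunit of cytochrome c oxidase that carries no metal centre, had off-target averages of 0.284%, 0.294% and 0.288% at on-target values of 74.1%, 73.9% and 73.9%. Its excess per percent was 3.51, 3.66 and 3.58 in the 3 samples, and all 3 lay above every sample of every other construct. CoII, the subunit that takes electrons from cytochrome c, followed with 2.26 ± 0.015 (SD, n = 3), from 0.175%, 0.174% and 0.173% off target. These were the closest together of all constructs off target, with a coefficient of variation of 0.529% for average off-target editing. CoI, the catalytic subunit that reduces oxygen, had the second highest on-target editing (71.7%, 71.7% and 71.9%) but ranked 5 of 13 in the excess per percent, at 1.96 ± 0.064 (SD, n = 3). Its samples gave 1.95, 2.04 and 1.91, all below the 3 CoII samples. The mean of the 3 complex IV constructs was 2.60, which was 1.81 times that of complex I. Without CoIII this ratio was 1.47.

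Complex V held the second highest value. Atp6, the subunit that forms the proton path of ATP synthase, had 0.208%, 0.202% and 0.199% off target and an excess per percent of 2.63, 2.55 and 2.52. Atp8, a small membrane subunit of the same complex, was edited at 65.7%, 65.1% and 65.1% and had off-target averages of 0.135%, 0.141% and 0.136%. Its excess per percent of 1.74 ± 0.055 (SD, n = 3) was the median of the 13 constructs, and its samples did not overlap with those of Atp6. The mean of both constructs was 2.16, or 1.50 times that of complex I, and without Atp6 the ratio was 1.21. Cytb, a haem-bearing subunit of complex III and the only subunit of that complex encoded in mtDNA, was edited at 64.6%, 64.2% and 64.5%. Its off-target averages were 0.128%, 0.127% and 0.125%, and its excess per percent was 1.59 ± 0.027 (SD, n = 3), below that of all 5 constructs of complexes IV and V.

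The 7 constructs of complex I, the NADH dehydrogenase, had excess per percent values with a mean of 1.44 (1.46 without Nd4 replicate 3) and spread from 0.845 to 2.20. Nd1, a membrane subunit beside the quinone site, was the highest of them at 2.20 ± 0.17 (SD, n = 3), within the range of complexes IV and V. Its off-target averages were 0.151%, 0.168% and 0.150% at on-target values of 60.5%, 60.3% and 60.5%. The second sample was thus set apart off target but not on target. Its coverage was 65020, against 40514 and 43142 in the other samples, and whether depth plays a part was not tested. The construct ranked 8 of 13 on target and 4 of 13 in the excess per percent. Nd2, a proton-pumping subunit of the membrane arm, was edited at 55.8%, 56.3% and 56.6%, with 0.0733%, 0.0698% and 0.0709% off target. This was the lowest average off-target editing of the 13 constructs, 2.99 times the empty vector, at 56.3% on target against 60.4% in Nd1. Nd1 and Nd2 share index i502 with each other and with the empty vector.

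Nd3, whose loop in the membrane arm lies near the quinone channel, was the best edited of complex I (63.4%, 63.5% and 63.1%) and had an excess per percent of 1.33 ± 0.052 (SD, n = 3). Nd5 and Nd4 are, like Nd2, proton-pumping subunits. The Nd5 construct was edited at 48.5%, 50.1% and 48.9% and had an excess per percent of 1.28, 1.24 and 1.30. Nd4 was edited at 49.0%, 49.9% and 47.0% and had 0.119%, 0.120% and 0.0943% off target, giving 1.94, 1.93 and 1.50 per percent. The lowest of these samples, replicate 3, was the one with a coverage of 2561, and whether depth plays a part in its values was not tested. With all samples the mean for Nd4 was 1.79 ± 0.25 (SD, n = 3), and without that sample it was 1.94 (n = 2), which still overlapped with CoI but no longer with Atp8.

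Nd6, a membrane subunit and the only protein encoded by the other strand of the mtDNA, was the least edited, at 38.1%, 38.5% and 38.2%. Its off-target averages of 0.0810%, 0.0852% and 0.0822% were nevertheless higher than those of Nd2 and Nd4l, which were edited more, and its excess per percent was 1.54 ± 0.047 (SD, n = 3). Nd4l, a small membrane subunit, had 0.0764%, 0.0801% and 0.0797% off target and an excess per percent of 1.08 ± 0.046 (SD, n = 3). This is the construct with adjacent target bases, of which only the second makes the stop. The first of its on-target values was 51.0%, 50.2% and 51.1% and the second 48.4%, 47.6% and 48.5%. The first exceeded the second in all 3 samples, by 2.59 percentage points ± 0.038 (SD, n = 3), but the table headers do not say which base each belongs to. With the second value as divisor the excess per percent was 1.14.

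**Figure D4:**
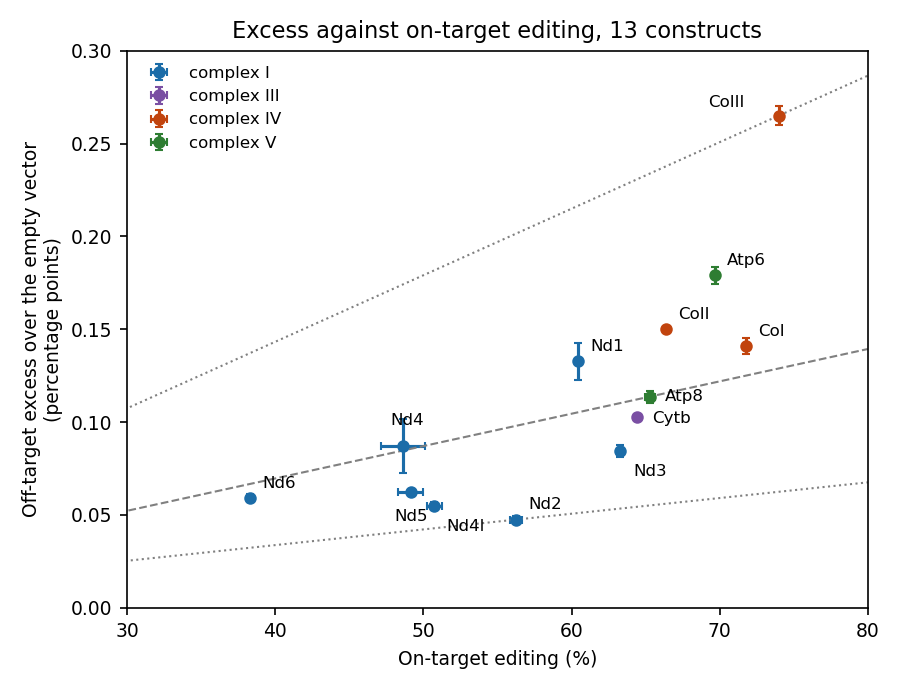
Off-target excess over the empty vector (percentage points, vertical axis) against on-target editing (%, horizontal axis, which begins at 30) for the 13 constructs, as means ± SD of 3 samples, coloured by complex. Along each grey line the excess per percent is constant, at 0.845 and 3.58 (dotted) and at 1.74 (dashed); Nd2 lies on the lowest and CoIII on the highest.

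Constructs with like on-target editing were compared directly. Among the 78 pairs, 7 had on-target means within 2 percentage points of each other. The excess per percent did not overlap between the constructs in these 7, against 71 of all 78 pairs, so non-overlap was not particular to like pairs. Their ratios were 1.09 to 1.42, with a median of 1.30 (exact permutation test, two-sided, p = 0.10 and adjusted p = 0.10 over the 7 pairs for each, the smallest that 3 against 3 allow). Without Nd4 replicate 3 there were 8 such pairs, with ratios of 1.09 to 1.79 and a median of 1.30, and the largest was that of Nd4 over Nd4l. With all samples, the largest was that of CoII over Cytb. On target, 66.4% stood against 64.5%, whereas the excess was 0.150 percentage points in CoII and 0.103 in Cytb. Both have index i504. Nd4 over Nd5, both with index i503, gave a ratio of 1.41 at 48.6% and 49.2% on target, and of 1.52 at 49.4% and 49.2% without Nd4 replicate 3. CoII over Atp8 and Atp8 over Nd3 had ratios of 1.30 and 1.31. Those of Cytb over Nd3 and Nd5 over Nd4l were 1.20 and 1.18, and Atp8 over Cytb had the smallest, at 1.09.

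Across the 13 constructs, the excess per percent and on-target editing had a Pearson r of 0.62 and a Spearman rho of 0.68 (0.60 and 0.71 without Nd4 replicate 3). This is a description without a test, since the on-target value is the divisor of the excess per percent and all constructs share the same empty vectors. Among the 7 complex I constructs r was 0.04 (rho -0.11, and 0.00 without that sample), and among the other 6 it was 0.79 (rho 0.83). With all samples, Nd4 replicate 3 included, mean coverage of a construct had an r of 0.47 (rho 0.49) with the excess per percent. With on-target editing it had an r of 0.57 (rho 0.64). The GC content of the target window had an r of -0.15 (rho -0.25) with on-target editing and -0.20 (rho -0.17) with the excess per percent. For the number of other TC cytosines in the window and the excess per percent, r was 0.32 and rho 0.16. The number of other TC cytosines was 3 both at CoIII and at Nd4l, whose values were 3.58 and 1.08.

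Whether the target itself enters the off-target average is not stated in the sources used here. If the average ran over all 5989 C:G pairs of the reference mtDNA, the target would make up 4.66% of the excess in CoIII, 19.8% in Nd2 and, with both bases, 30.1% in Nd4l. In the other 10 constructs it would make up from 6.50% (Atp6) to 13.1% (Nd5). With that share removed, the values were 3.42 in CoIII, 2.40 in Atp6, 0.757 in Nd4l and 0.678 in Nd2.

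The same 13 lead pairs had been sequenced in the screen of pairs at 7 d, in 1 sample each, and were chosen there by editing on and off target. An empty vector of the same run exists for 9 of them, 7 in run MS1 and 2 in run MS2 (CoI and Nd6). In these single samples the excess per percent ranged from 1.41 in Nd2 to 3.63 in Nd1. Side by side with the 14-d means, the values were 3.45 and 3.58 for CoIII, 2.72 and 2.57 for Atp6, 2.02 and 2.26 for CoII, 1.72 and 1.96 for CoI, and 1.50 and 1.59 for Cytb. For complex I they were 3.63 and 2.20 for Nd1, 3.01 and 1.54 for Nd6, 1.75 and 1.33 for Nd3, and 1.41 and 0.845 for Nd2. Nd2 was lowest in both sets. Over the 9 constructs Pearson r was 0.67 and Spearman rho 0.62, and over the 7 of run MS1 they were 0.80 and 0.75. Time point, sequencing run and depth (coverage of 610 to 2064 for these 9 in the screen) differed between the sets. The background differed too. The empty vector, 1 sample per run, had 0.0616% off target in MS1 and 0.121% in MS2, against a mean of 0.0238% at 14 d. The levels were therefore set side by side only, without a test.

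**Figure D5:**
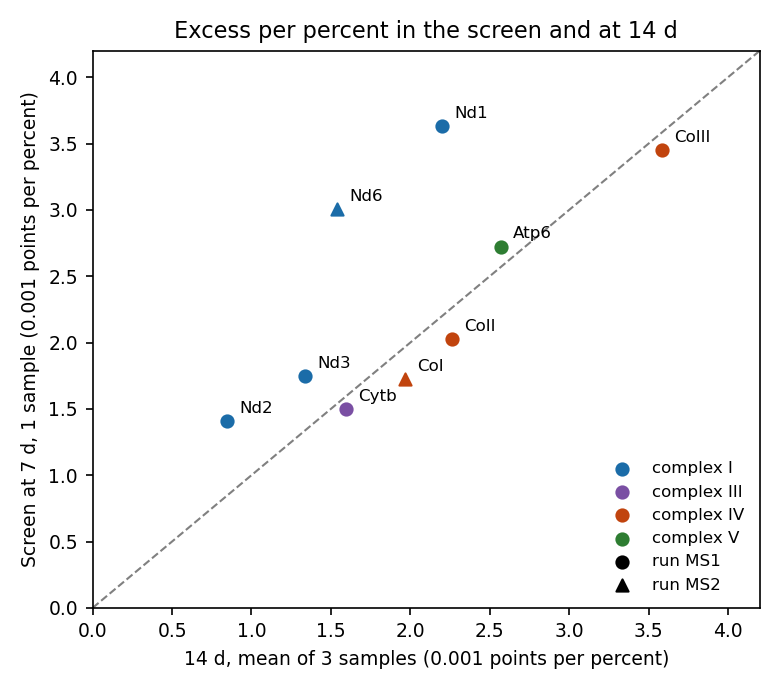
Excess per percent (units of 0.001 percentage points) of 9 lead pairs in the screen at 7 d (1 sample, vertical axis) against the mean of 3 samples at 14 d (horizontal axis), coloured by complex, with run MS1 as circles and run MS2 as triangles. The dashed line marks equal values; Nd1 (3.63 and 2.20) lies above it and CoIII (3.45 and 3.58) close to it.

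Nd3, Cytb, CoII and Atp6 were also sequenced in 3 other transient formats, whose labels give 7 d. In the 2-plasmid samples their order by excess per percent was Atp6 (2.57), CoII (2.26), Cytb (1.59) and Nd3 (1.33). With the hammerhead ribozyme in both plasmids (2-plasmid-HHR, run MS4) the means were 1.92, 2.25, 1.29 and 0.465 in that order of constructs. In Tandem, which carries both monomers on 1 plasmid, they were 2.56, 2.92, 0.960 and 1.58, and in Tandem-HHR 1.06, 0.825, 0.428 and 0.619, both from run MS5 and against the same empty vectors. By their means, CoII and Atp6 held the first and second place in all 4 formats, but samples overlapped in some of them. In Tandem, CoII ranged from 1.27 to 3.77 and Nd3 from 1.41 to 1.79. In Tandem-HHR, Nd3 ranged from 0.00659 to 1.29 and Cytb from -0.0800 to 0.897. CoII there ranged from 0.524 to 1.16 and Atp6 from 0.918 to 1.14. Constructs that overlap cannot be ranked by these samples. In 2-plasmid-HHR the Nd3 excess was 0.0173 percentage points, and its empty vectors had an SD of 0.0169 (n = 3). The empty vectors of these formats had off-target averages of 0.151% (MS4) and 0.157% (MS5), against 0.0238% here. Format, run and time point go together, so the levels were set side by side only.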

How the data were processed

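The authors copied the mtDNA in 2 overlapping long-range PCR products and made Nextera XT libraries. Reads were trimmed with Trim Galore (cutadapt) and mapped by Bowtie2 against the GRCm38 mitochondrial chromosome, and base frequencies came from SAMtools pileups and VarScan. The deposited on-target and off-target values are percent values, and the deposited coverage signal is the mean depth of a sample, not normalized. Depth at the target is unknown, so no binomial interval is given and the SD (n - 1) between samples is the only error.

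Differences, ratios, exact permutation tests and permutation tests of variance shares (100000 draws, fixed seed) were computed with python 3.11.15, numpy 2.4.6, scipy 1.17.1 and pandas 2.3.3, with a threshold of 0.05. Only the tests without blocks, of a difference of means and of variance shares, were tried on simulated data. All 42 samples were kept, and percentages entered the main results untransformed. All 13 constructs are named, by complex. The members, lists and tests were chosen with earlier results of these data known. Groups come from the labels. Across the tables of the series, 12 entries match no sample record and were not used, and values repeated between tables differed in 0 cases. Alternatives covered left-out samples and constructs, the scale, the empty vector subtracted, the target's own share and the limit for like on-target editing. The tables of the mouse and nuclear samples were not used here. The sources used here do not state which positions enter the off-target average.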

Additional observations from a re-analysis of the deposited data

Results flagged for a closer look

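The constructs differed in average off-target excess by a test of the difference itself, with 99.4% of its variance between constructs (permutation test over 39 samples, p = 1e-05). The same held for the excess per percent on target, with 98.8% between constructs (permutation test, p = 1e-05). Both p-values are the smallest that 100000 permutations can give. They rest on the spread between the 3 samples of a construct, which may be technical. If it is, construct and transfection cannot be told apart. No test for outlying samples was run within groups of 3. Nd4 replicate 3 was singled out by its coverage.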

How the results depend on the processing

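The ratios of the excess per percent were 1.81 (complex IV over I), 1.50 (V over I) and 4.24 (highest over lowest construct) in the report. They became 1.95, 1.59 and 5.04 with the target's own share removed, which also lowered the median over constructs from 1.74 to 1.58. Divided by minus the natural log of the unedited share, they were 1.47, 1.27 and 3.43, and without subtracting the empty vector 1.55, 1.32 and 3.08. With medians of the constructs in place of means, complex IV over I was 1.70 and V over I 1.62. Leaving out 1 construct at a time gave 1.47 to 2.03 for IV over I and 1.21 to 1.79 for V over I. Pairs of constructs with like on-target editing whose samples did not overlap numbered 2 of 2 at a limit of 1 percentage point and 11 of 11 at a limit of 3, against 71 of all 78 pairs.

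Without one replicate number at a time, the difference between edited samples and empty vectors was 0.113 to 0.115 percentage points (exact permutation p = 0.016 each time). In these settings 13 constructs lay above all empty vectors, and the median excess per percent was 1.71 to 1.75. The variance shares between constructs were then 99.8% to 99.9% on target, 99.4% to 99.7% for the excess and 98.7% to 99.4% per percent. Like pairs without overlap numbered 5 to 9 in these settings. With all samples 71 of all 78 pairs did not overlap, so such counts do not set like pairs apart. Of 66 values of single constructs against the empty vector under the alternatives, 66 kept their direction and their side of the threshold, which 3 against 3 cannot pass. Leaving out Nd4 replicate 3, chosen after the coverage was seen, gave 1.79 and 1.48 for the ratios of IV and V over I. All 8 like pairs were then without overlap, against 74 of all 78 pairs. Without the Nd4 construct, the variance shares were 99.9%, 99.7% and 99.4%.

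Whether same-numbered samples deviate together cannot be decided here, since each correlation rests on 3 samples. Correlations above 0.1 were found for 38 of 78 pairs of constructs on target and 48 of 91 pairs off target, the empty vector included. With the replicate number as a block, the edited samples exceeded the empty vectors by the same 0.114 percentage points (exact permutation test over 2744 splits, p = 0.0066), and the sign-flip tests of single constructs gave p = 0.25, the smallest they can. Apart from Nd4 replicate 3, the lowest coverage was 31439. The number of samples, 3 per construct, limits the p-values that single constructs can reach.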
